A study of Mus musculus with 9 samples.

Results

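The IFIT and IFITM genes encode antiviral proteins that cells make in response to interferon. The 8 members described here are the 4 IFIT genes Ifit1, Ifit2, Ifit3 and Ifit3b and the 4 IFITM genes Ifitm1, Ifitm2, Ifitm3 and Ifitm10, taken by symbol from the 36410 genes of the deposited count table. All 8 had counts high enough to be tested, among 13508 tested genes, Ifit1 through its HD-homo libraries. A further 5 genes of the same families, Ifit1bl1, Ifit1bl2, Ifitm5, Ifitm6 and Ifitm7, are given beside them.

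Interferon released by an infected cell binds receptors on neighbouring cells and activates, through Janus kinases, transcription factors that enter the nucleus and switch on interferon-stimulated genes. IFIT proteins are products of such genes that sit in the cytosol and bind foreign RNA, among it RNA whose cap lacks the methyl marks of host messenger RNA. IFITM proteins are small membrane proteins that hinder the fusion of viral and cellular membranes, Ifitm1 mostly at the cell surface and Ifitm3 in endosomes. In the mouse brain, Ifit2 is known for limiting the spread of some viruses between neurons.

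RNA was sequenced from 3 immortalized striatal cell lines of C57/BL6 mice that differ in exon 1 of Htt, the gene mutated in Huntington disease. The paper describes the control line as derived from wild-type mouse embryos and the HD-het and HD-homo lines as derived from knock-in embryos. Control cells (STHdhQ7/Q7) had 7 glutamine codons in both alleles, HD-het cells (STHdhQ7/Q111) had 7 in one allele and 111 in the other, and HD-homo cells (STHdhQ111/Q111) had 111 in both. Each genotype was represented by 1 line with 3 libraries of poly(A) RNA, so an effect of genotype cannot be told apart from one of line, and whether the RNA-seq libraries came from separate cultures is not given in the labels, nor does the paper's general statement that experiments were repeated name them. Adjusted p-values therefore rest on the spread between libraries within a line, which may be technical. That spread was estimated over all 3 lines together, so the line outside a comparison also enters its p-values. The tables held between 29507665 counts (control replicate 3) and 41197931 counts (HD-homo replicate 2) per library, and a gene with 3 counts in a library stood at 0.0710 to 0.101 normalized counts per megaread (CPM). The TMM factors lay between 0.984 and 1.025.

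Htt, the gene that defines the lines, was measured at 104, 103 and 93.0 CPM in control cells, at 61.8, 64.0 and 61.1 CPM in HD-het cells and at 19.7, 21.7 and 19.2 CPM in HD-homo cells. The 3 lines did not overlap, and Htt was lowest in HD-homo cells (log2 fold change −2.31, SE 0.07, adjusted p = 3.4e-10 against control).

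Marker genes were read beside the families because the lines differed in far more than these 8 genes. Of 10 markers of striatal projection neurons, Drd1 was at 0 in all 9 libraries and the most abundant, the broadly expressed Foxp1, stood at 95.7, 97.7 and 87.9 CPM in control cells. Of the 5 tested, 2 were higher and none lower in HD-homo cells and 2 were higher and 2 lower in HD-het cells, where 58.6% and 65.1% of all tested genes were called. The summed level of that list was 98.2, 100.2 and 90.2 CPM in control libraries. It was 115.0, 114.5 and 117.7 CPM in HD-het and 168.5, 161.7 and 183.7 CPM in HD-homo libraries. Most of this sum was Foxp1, with means of 93.8, 114 and 167.8 CPM in that order of lines. The other tested markers had far lower levels and no common direction. Bcl11b had means of 0.167, 0.562 and 0.0739 CPM and Penk of 1.28, 0.470 and 2.42 CPM. Rgs9 had means of 0.405, 0.0884 and 0.389 CPM and Adora2a of 0.414, 0.396 and 0.233 CPM. Apart from Foxp1, only Penk was called in HD-homo against control cells. Among markers of neural progenitors, Nes was measured at 544.4, 548.1 and 486.3 CPM in control, 856.6, 841.5 and 820.5 CPM in HD-het and 34.3, 21.4 and 29.6 CPM in HD-homo cells, and Pax6 at 31.7, 31.7 and 32.8, at 47.2, 47.7 and 49.6, and at 0.153, 0.0947 and 0.149 CPM. Sox2 stood at 121.5, 121.7 and 141.1 CPM in control, 85.2, 84.4 and 79.1 CPM in HD-het and 5.79, 5.66 and 4.98 CPM in HD-homo libraries. Nes and Pax6 were thus highest in HD-het cells, Sox2 in control cells, and all 3 lowest in HD-homo cells. Vim was the most abundant of that list, which summed to 5958, 5894 and 6356 CPM in control, 5481, 5315 and 5819 CPM in HD-het and 4157, 4162 and 4574 CPM in HD-homo libraries. All 4 tested progenitor markers fell in HD-homo cells relative to control, and in HD-het cells Nes and Pax6 were higher and Sox2 and Vim lower, Vim with an adjusted p of 0.0161 that passed the threshold in 6 of 9 fits with a library left out and reached 0.0627 without HD-het replicate 2.

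Of 6 fibroblast or mesenchymal markers, 4 were higher and 1 lower in HD-homo cells, and 3 were higher and 2 lower in HD-het cells. With 58.6% and 65.1% of all tested genes called in these comparisons, the number of markers called says little, and their levels are given instead. Among these, Pdgfra stood at 5.72, 5.71 and 4.19 CPM in control, 3.89, 3.96 and 5.27 CPM in HD-het and 310.7, 308.3 and 300.7 CPM in HD-homo libraries. Acta2 stood at 2384, 2374 and 2056 CPM in control, 5639, 5300.0 and 4931 CPM in HD-het and 116.3, 57.7 and 101.5 CPM in HD-homo libraries. Col1a2 and Dcn were lower in HD-het and higher in HD-homo than in control libraries, Acta2 the reverse, and Pdgfra was high in HD-homo libraries only. Col1a1 and Col3a1, the remaining markers of the list, had their highest means in HD-het cells. Their means were 2465 and 490.6 CPM in control, 7097 and 997.1 CPM in HD-het and 4234 and 551 CPM in HD-homo cells. The list thus had no common direction. By the mean of each line Col1a1 was the most abundant of the mesenchymal list, followed in control and HD-het cells by Acta2, which exceeded it in control replicate 3 (2056 against 2027 CPM). The list summed to 5760.0, 5628 and 4541 CPM in control, 14361.6, 13374.5 and 12444.8 CPM in HD-het and 6723, 6428 and 6947 CPM in HD-homo cells. Of 7 markers of microglia or other immune cells, Aif1 and Tyrobp were at 0 in every library, and the list summed to 2.52, 2.62 and 2.84 CPM in control, 3.72, 3.99 and 6.26 CPM in HD-het and 4.69, 4.31 and 4.92 CPM in HD-homo cells, with Cd68 the most abundant. Of 2 tested markers, only Csf1r was called higher in HD-homo cells (log2 fold change 1.89) and only Cd68 in HD-het cells (0.93). Ptprc, with too few counts to be tested, had 5, 7 and 6 counts in control, 5, 8 and 19 in HD-het and 1, 4 and 2 in HD-homo libraries. The counting interval of its ratio of HD-homo to control cells was 0.121 to 0.859, so these markers had no common direction there. Itgam and Cx3cr1 had at most 5 counts in a library. The only tested astrocyte marker of 5, Slc1a3, was measured at 2.05, 2.41 and 2.27 CPM in control, 0.395, 0.518 and 1.02 CPM in HD-het and 12.4, 17.7 and 13.6 CPM in HD-homo cells, the order of lines of Ifitm3. The other astrocyte markers had too few counts to be tested, and of them Gfap and Aldh1l1 had fewer counts in HD-homo than in control cells, Gfap with 6, 4 and 6 counts in control, 5, 6 and 4 in HD-het and 1, 1 and 2 in HD-homo libraries and Aldh1l1 with 7, 2 and 6, then 2, 2 and 3, then 0, 1 and 2 counts. The counting interval of the ratio of HD-homo to control cells was 0.0535 to 0.682 for Gfap and 0.0327 to 0.622 for Aldh1l1, so the list had no common direction. S100b had at most 2 counts and Aqp4 at most 1 count in a library. Of 4 oligodendrocyte markers, Mog was at 0 in every library and Mbp had 4, 4 and 3 counts in control, 3, 4 and 5 in HD-het and 26, 48 and 59 in HD-homo libraries, through which alone it passed the filter. Of neurons in general and of endothelial cells 2 markers each were tested, and none was called in HD-homo against control cells. The endothelial Tek, with too few counts to be tested, had 1, 1 and 2 counts in control, 13, 8 and 2 in HD-het and 7, 24 and 8 in HD-homo libraries. The counting interval of its ratio to control cells was 3.09 to 33 for HD-homo and 1.84 to 21.5 for HD-het cells. Pecam1, also untested, had at most 6 counts in a library. In HD-het against control cells Tubb3 (log2 fold change 0.26, adjusted p = 0.00983) and the endothelial Kdr (1.03, adjusted p = 0.0101) were higher, and the endothelial Cdh5 was lower (−1.50, adjusted p = 0.0215, called in 6 of 9 fits with a library left out and reaching 0.0773 without control replicate 3). In such bulk RNA, fewer cells of a type and less RNA per cell cannot be told apart, and the part of these marker differences in the IFIT and IFITM values was not tested.

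Against control cells, 7 of the 8 members were called different in HD-homo cells (edgeR quasi-likelihood test, Benjamini-Hochberg adjusted p under 0.05), of which 5 were higher and 2 lower. Ifit1, among those 5, passed the filter only through its HD-homo libraries, so its calls in all 3 comparisons carry little weight. Of all tested genes, 58.6% were called in that comparison, 29.6% as higher and 28.9% as lower. In HD-het against control cells, 6 members were called, 3 higher and 3 lower, where 65.1% of all tested genes were called, 33.8% higher and 31.4% lower. All 8 members were called different between HD-homo and HD-het cells, 6 of them, Ifit1 among these, higher in HD-homo, where 71.6% of all tested genes were called, 36.0% higher and 35.6% lower. With most of the transcriptome called, the number of members called says little, and the sizes and directions below carry the description. The 3 comparisons share libraries and are not independent.

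Ifit1, the cap-binding sensor of the family, had 4, 3 and 0 counts in control libraries, 8, 7 and 13 counts in HD-het libraries and 513, 956 and 761 counts in HD-homo libraries. In CPM these were 0.124, 0.0892 and 0 in control, 0.226, 0.213 and 0.389 in HD-het and 15.7, 22.6 and 22.7 in HD-homo cells. Ifit1 was near the detection floor in control cells and every HD-homo library lay above every other library. It passed the filter only through its HD-homo libraries, so its calls carry little weight and its p-values are not given. Its summed counts were 280.3-fold those of control cells after normalization, with an exact 95% counting interval of 136 to 698 that covers counting error only and rests on 7 control counts. The fitted difference was a log2 fold change of 8.05 (SE 0.34), which rose to 8.64 without control replicate 1. Between HD-het and control cells the log2 fold change was 1.86 (SE 0.67), every HD-het library lay above every control library, and the counting interval of the ratio ran from 1.60 to 10.2. Ifit1 was called in that comparison, but not without control replicate 2, without control replicate 3 or without HD-het replicate 3. Its log2 fold change there moved to 2.45 without control replicate 1.

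Ifit3 and Ifit3b are neighbouring copies whose products associate with other IFIT proteins. Ifit3 stood at 0.373, 0.238 and 0.271 CPM in control, 0.846, 0.793 and 0.749 CPM in HD-het and 5.58, 4.81 and 4.86 CPM in HD-homo cells. Ifit3b followed at 0.249, 0.178 and 0.203 CPM, at 0.564, 0.671 and 0.749 CPM and at 5.15, 4.52 and 4.74 CPM. For both genes the lines stood in the order control, HD-het, HD-homo with no overlap between any 2 of them. Relative to control, Ifit3 was up 17.3-fold in HD-homo cells (log2 fold change 4.09, SE 0.19, adjusted p = 1.3e-08) and 2.71-fold in HD-het cells (log2 fold change 1.43, SE 0.24, adjusted p = 2.8e-04). Ifit3b was 22.9-fold and 3.15-fold higher in the same comparisons (log2 fold changes 4.49 and 1.64, adjusted p = 8.5e-09 and 1.8e-04). The values of this pair are uncertain as separate genes: of all stretches of 50 bases in Ifit3 transcripts, 51.2% occur without change in Ifit3b and 81.8% with up to 2 mismatches, and how reads that match both were divided is not given in the sources used here. Summed to 1 gene, the pair had log2 fold changes of 4.29 in HD-homo and 1.52 in HD-het cells.

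Ifit2 departed from the other 3 IFIT genes. It had 886, 967 and 851 counts in control libraries, 957, 1026 and 990 counts in HD-het libraries and 513, 1214 and 566 counts in HD-homo libraries. As CPM these were 27.6, 28.8 and 28.8 in control, 27.0, 31.3 and 29.7 in HD-het and 15.7, 28.8 and 16.9 in HD-homo cells. Control and HD-het libraries overlapped, 2 HD-homo libraries lay below all others, and HD-homo replicate 2 stood at the level of control cells. Ifit2 shares no stretch of 50 bases with any other gene of the table. The fitted log2 fold change of HD-homo against control cells was −0.46 (SE 0.18, adjusted p = 0.0475), and in 11 of 17 alternative fits the adjusted p was 0.05 or more, the highest being 0.161 without HD-homo replicate 1. Without HD-homo replicate 2 the log2 fold change was −0.80 (adjusted p = 1.3e-05). HD-homo against HD-het cells gave −0.51 (adjusted p = 0.0257), a call lost without HD-homo replicate 1 (0.0960), HD-homo replicate 3 (0.0827), HD-het replicate 2 (0.0760) or HD-het replicate 3 (0.0547). HD-het against control cells gave 0.05 (SE 0.18, adjusted p = 0.832), and −0.001028 without HD-het replicate 2.

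**Figure D1:**
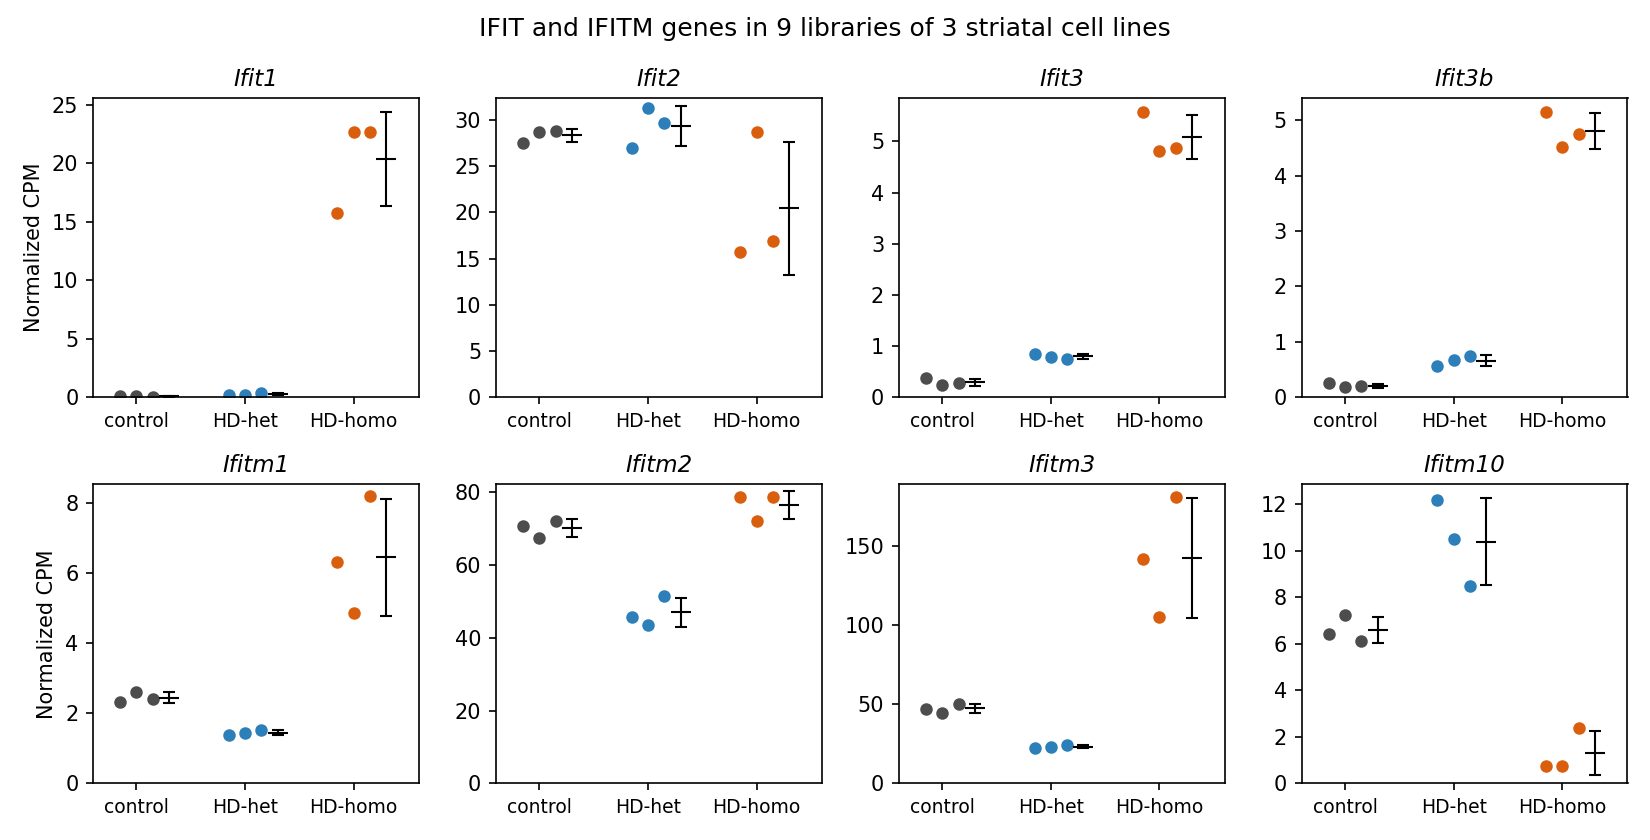
Normalized CPM of the 8 members in each library (points) with the mean and SD of 3 libraries per line (bars), each panel with its own linear axis from 0. Ifit1, Ifit3 and Ifit3b are highest in HD-homo cells, Ifit2 is not, Ifitm1 and Ifitm3 are lowest in HD-het cells, and Ifitm10 is lowest in HD-homo cells.

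Within single libraries the contrast between Ifit2 and Ifit3 does not depend on normalization between libraries. There were 73.8, 121 and 106 Ifit2 counts per Ifit3 count in control libraries, 31.9, 39.5 and 39.6 in HD-het libraries and 2.82, 5.98 and 3.47 in HD-homo libraries. The 3 lines did not overlap in this ratio, which is given as a description with no test because Ifit2 was singled out with results known. On the log2 scale the ratio was 6.62 ± 0.37 in control, 5.20 ± 0.18 in HD-het and 1.96 ± 0.56 in HD-homo cells (SD, n = 3). Relative to Ifit1, summed over the libraries of a line because Ifit1 was at 0 in 1 of them, there were 386 Ifit2 counts per Ifit1 count in control, 106 in HD-het and 1.03 in HD-homo cells. The control value rests on 7 Ifit1 counts, and its log2, 8.59, became 9.24 without control replicate 1. In the HD-homo line Ifit2 and Ifit1 counts were thus nearly equal over the line, at 2293 and 2230.0, but Ifit1 exceeded Ifit2 in replicate 3 (761 against 566 counts), both had 513 counts in replicate 1, and Ifit2 exceeded Ifit1 in replicate 2 (1214 against 956 counts). Without replicate 2 the log2 ratio of the summed counts was −0.24, and without replicate 3 it was 0.23.

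**Figure D2:**
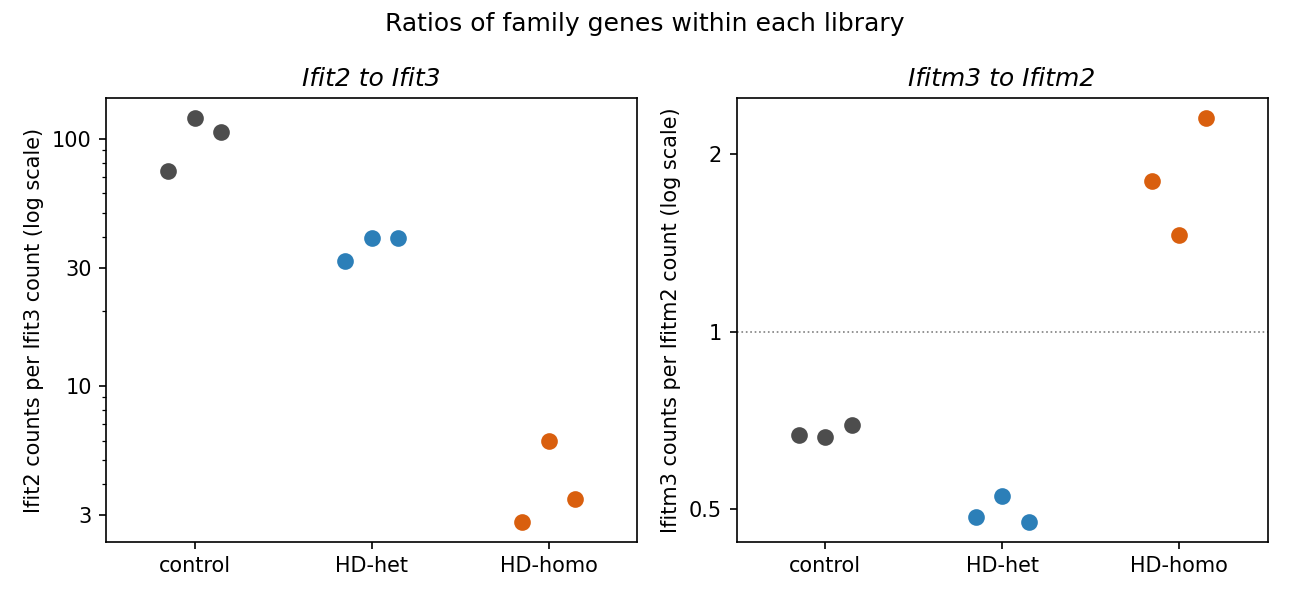
Counts of Ifit2 per count of Ifit3 (left) and of Ifitm3 per count of Ifitm2 (right) in each library, on log axes, with 1 point per library. The left ratio runs from 121 at most in control to 2.82 at least in HD-homo cells, and the right ratio is below 1 in control and HD-het and above 1 in HD-homo libraries.

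The IFIT genes lie within 99.3 kb of chromosome 19 (GRCm38 annotation), in the order Ifit2, Ifit3, Ifit1bl1, Ifit3b, Ifit1bl2 and Ifit1, and both Ifit1bl genes are on the minus strand. Their start regions are shown because 3 of the 4 IFIT members moved together and 1 did not. Windows of 300 bases from 250 before to 50 after each start were taken from RefSeq (GRCm38.p6), where all 8 members were matched, and were searched on both strands for GAAANNGAAA, the core of the interferon-stimulated response element. Of all 32851 windows, 3.44% hold it. In the stretches below, written 5′ to 3′ on the strand of the gene, capitals mark this core or its reverse complement. They are chr19:34640755-34640843, chr19:34583343-34583446, chr19:34607739-34607842 and chr19:34550444-34550743, all on the plus strand, the last being the whole first window of Ifit2.
Ifit1: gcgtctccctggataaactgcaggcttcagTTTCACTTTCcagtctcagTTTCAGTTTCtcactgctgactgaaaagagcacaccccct
Ifit3: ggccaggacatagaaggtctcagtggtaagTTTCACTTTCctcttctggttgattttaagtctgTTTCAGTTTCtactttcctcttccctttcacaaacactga
Ifit3b: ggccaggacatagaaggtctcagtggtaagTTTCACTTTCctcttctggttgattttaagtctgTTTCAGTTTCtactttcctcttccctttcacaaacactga
Ifit2: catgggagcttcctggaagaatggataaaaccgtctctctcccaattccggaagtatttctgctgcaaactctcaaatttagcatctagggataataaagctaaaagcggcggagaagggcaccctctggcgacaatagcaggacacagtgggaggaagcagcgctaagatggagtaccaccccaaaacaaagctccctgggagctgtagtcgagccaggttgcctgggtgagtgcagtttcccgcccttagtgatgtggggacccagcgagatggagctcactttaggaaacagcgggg

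The core occurs at 2 places each in the windows of Ifit1 (104 and 85 bases before the start), Ifit3 (156 and 122 bases) and Ifit3b (188 and 154 bases), in the reverse orientation each time. The Ifit3 and Ifit3b windows share an identical run of 169 bases, and the printed stretches of both are the same. The core is in neither of the 2 windows of Ifit2. Of the relatives, Ifit1bl1 holds it at 1 place in each of its 2 windows. Ifit1bl2 holds it at 2 places in 1 of its 2 windows, in the stretch printed for Ifit1, read on the other strand. The annotation places the Ifit2 start 19656 bases before its first coding base, which lies in a later exon, whereas in Ifit1, Ifit3 and Ifit3b the first coding base lies in the first exon, 112, 69 and 24 bases from the start. The sequence beside the coding exon of Ifit2 was not analysed here. The core TTCNNNGAA of the gamma-activated sequence is in 8.30% of all windows, and among the members in 1 window each of Ifit2 and Ifitm3.

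Ifit1bl1 and Ifit1bl2, uncharacterized relatives between the named genes of the cluster, had few counts outside HD-homo cells. Ifit1bl1 had 2, 1 and 0 counts in control, 1, 0 and 2 in HD-het and 20, 38 and 44 in HD-homo libraries. Ifit1bl2 had 2, 2 and 1, then 3, 1 and 11, then 22, 39 and 40 counts. Every HD-homo library lay above all others for both genes, and the counting interval of the ratio of HD-homo to control cells was 9.95 to 147 for Ifit1bl1 and 7.37 to 55.9 for Ifit1bl2. Both passed the filter only through the HD-homo libraries where they are high, so their p-values are not given and their marks in the figures carry little weight. The fitted log2 fold change of Ifit1bl1, 4.75, became 5.601 without control replicate 1. HD-het and control libraries overlapped for both. Of the stretches of 50 bases in Ifit1 transcripts, 9.78% match Ifit1bl1 with up to 2 mismatches and a similar share match Ifit1bl2, so some of these low counts may belong to Ifit1.

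No tested protein-coding neighbour outside the cluster had the order control, HD-het, HD-homo of Ifit3 and Ifit3b. Lipa, Ch25h and Fas, on the side of Ifit2, were nevertheless higher than control in both mutant lines. Lipa, a lysosomal lipase gene 23.2 kb before Ifit2, stood at 51.8, 49.0 and 44.7 CPM in control, 82.8, 81.4 and 76.3 CPM in HD-het and 61.3, 73.6 and 68.6 CPM in HD-homo cells and was thus higher in both mutant lines (log2 fold changes 0.73 and 0.49, adjusted p = 1.2e-05 and 3.0e-04). Ch25h, the interferon-inducible cholesterol hydroxylase gene beyond it, stood at 0.124, 0.208 and 0.338 CPM in control, 2.71, 2.74 and 1.56 CPM in HD-het and 1.23, 1.37 and 2.54 CPM in HD-homo cells, and its mutant lines overlapped each other. Fas, a death receptor gene, had log2 fold changes of 1.17 in HD-homo and 1.29 in HD-het cells. On the other side, Slc16a12 had at most 1 count in a library, Pank1 was at a log2 of −0.34 for HD-homo against control (adjusted p = 0.0138, 0.0509 without control replicate 3) and Kif20b at 0.03 (adjusted p = 0.840). For HD-het against control, Pank1 was at 0.08 (adjusted p = 0.497) and Kif20b was lower at −0.73 (adjusted p = 5.5e-04).

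**Figure D3:**
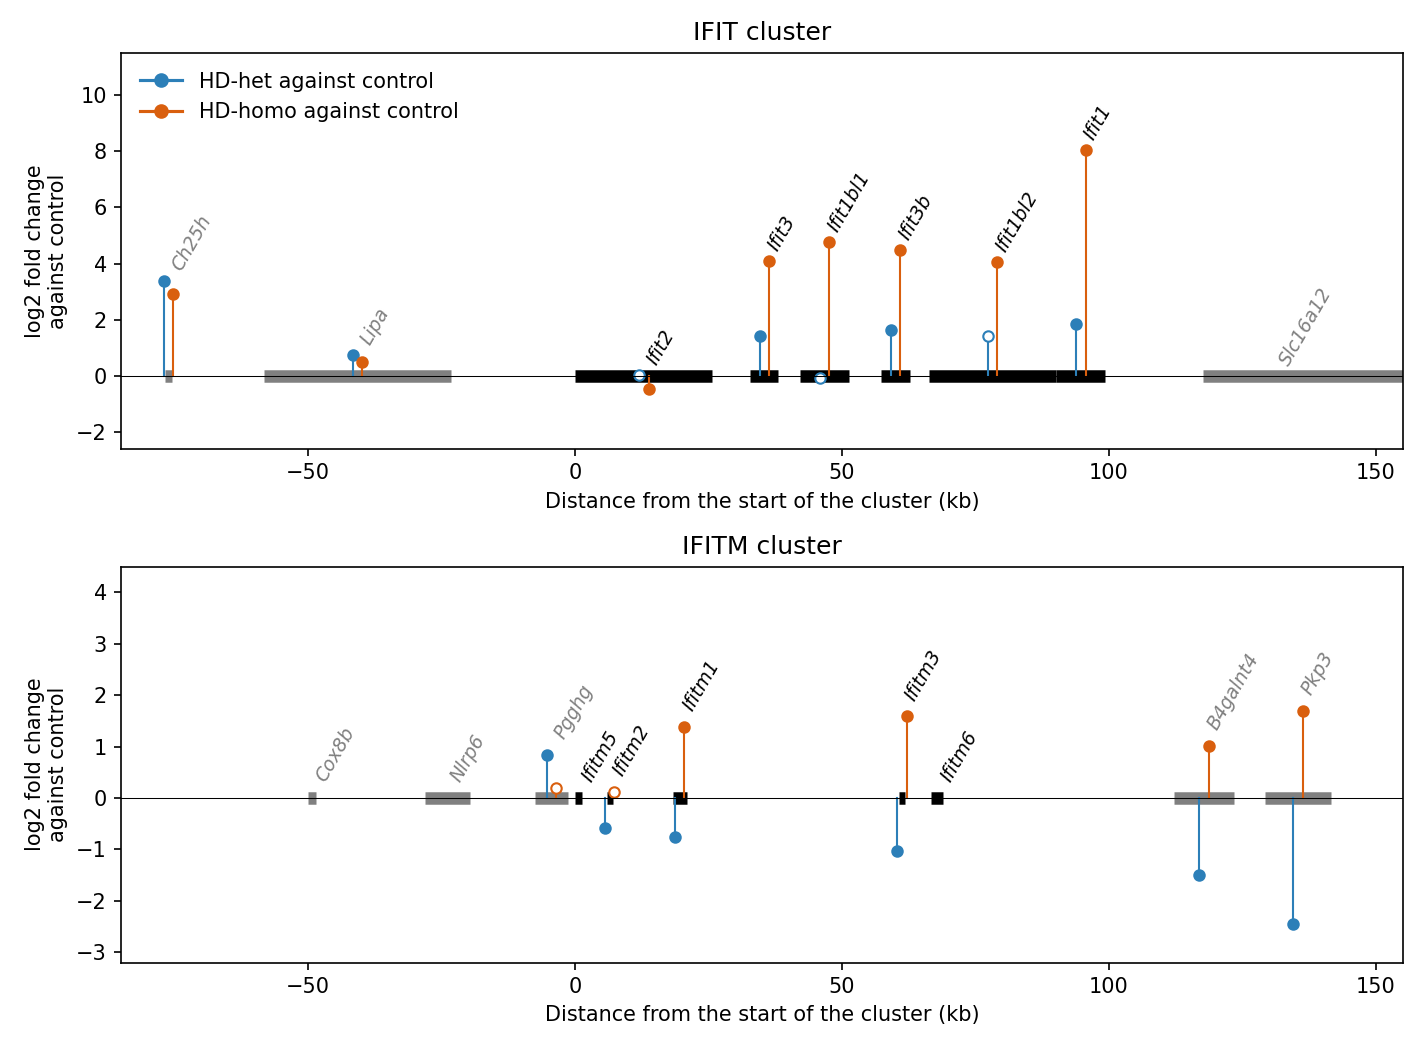
Fitted log2 fold change against control in HD-het and HD-homo cells (circles, open where the adjusted p was 0.05 or more) at each gene of the IFIT and IFITM clusters and of their protein-coding neighbours, against distance from the start of the cluster in kb, with thick bars for gene bodies (black for the families, grey for neighbours). Genes without circles had too few counts to be tested, and Ifit2 at 0 kb stays near 0 while Ifit1 reaches 8.05. Ifit1, Ifit1bl1 and Ifit1bl2 passed the filter only through HD-homo libraries, so whether their circles are open carries little weight.

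Ifitm3, which restricts virus entry from endosomes, had the highest counts of the members in HD-homo cells. It stood at 47.2, 44.6 and 50.1 CPM in control, 22.2, 22.9 and 24.5 CPM in HD-het and 141, 105 and 181 CPM in HD-homo cells. The lines did not overlap, HD-het cells were lowest and HD-homo replicate 3 was highest. Relative to control, Ifitm3 was up 3.01-fold in HD-homo cells (log2 fold change 1.59, SE 0.15, adjusted p = 4.8e-06) and down in HD-het cells (0.491-fold, log2 fold change −1.03, SE 0.16, adjusted p = 1.6e-04). HD-homo exceeded HD-het cells 6.13-fold (log2 fold change 2.62, adjusted p = 7.5e-08).

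Ifitm1, found mostly at the cell surface, showed the same order of lines. It was at 2.33, 2.62 and 2.40 CPM in control, 1.38, 1.43 and 1.53 CPM in HD-het and 6.32, 4.85 and 8.20 CPM in HD-homo cells. All HD-het libraries were below and all HD-homo libraries above the control libraries, and HD-homo libraries were the most spread. The log2 fold change was 1.39 (SE 0.18, adjusted p = 6.1e-05) in HD-homo and −0.76 (SE 0.21, adjusted p = 0.00758) in HD-het cells against control. Ifitm1 and Ifitm3 were the 2 members called in opposite directions in the mutant lines.

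Ifitm2, also an endosomal restriction protein, differed mainly in HD-het cells. It stood at 70.7, 67.3 and 72.1 CPM in control, 45.8, 43.6 and 51.5 CPM in HD-het and 78.6, 71.9 and 78.6 CPM in HD-homo cells. HD-het libraries lay below all others and HD-homo replicate 2 fell within the range of control cells. In HD-het cells Ifitm2 was 0.670-fold the control level (log2 fold change −0.58, SE 0.07, adjusted p = 3.1e-05), and for HD-homo against control cells the log2 fold change was 0.12 (SE 0.07, adjusted p = 0.150). The fit across all genes gave a log2 difference of 0.70 between HD-homo and HD-het cells (SE 0.07, adjusted p = 4.5e-06).

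Ifitm10, a member that is not known as interferon-induced and whose role is poorly understood, went the other way. It stood at 6.44, 7.23 and 6.12 CPM in control, 12.2, 10.5 and 8.48 CPM in HD-het and 0.736, 0.758 and 2.39 CPM in HD-homo cells. HD-homo libraries lay below and HD-het libraries above all control libraries, and HD-homo replicate 3 stood apart from the other 2. Against control, its HD-homo log2 fold change was −2.37 (SE 0.34, adjusted p = 1.2e-04) and became −3.14 without HD-homo replicate 3, and HD-homo against HD-het it was −3.03 (adjusted p = 8.9e-06) and became −3.80 without that library. For HD-het against control cells it was 0.66 (SE 0.28, adjusted p = 0.0602), a value that passed 0.05 in 6 of 17 alternative fits, among them one without HD-homo replicate 3 (adjusted p = 0.00123).

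**Figure D4:**
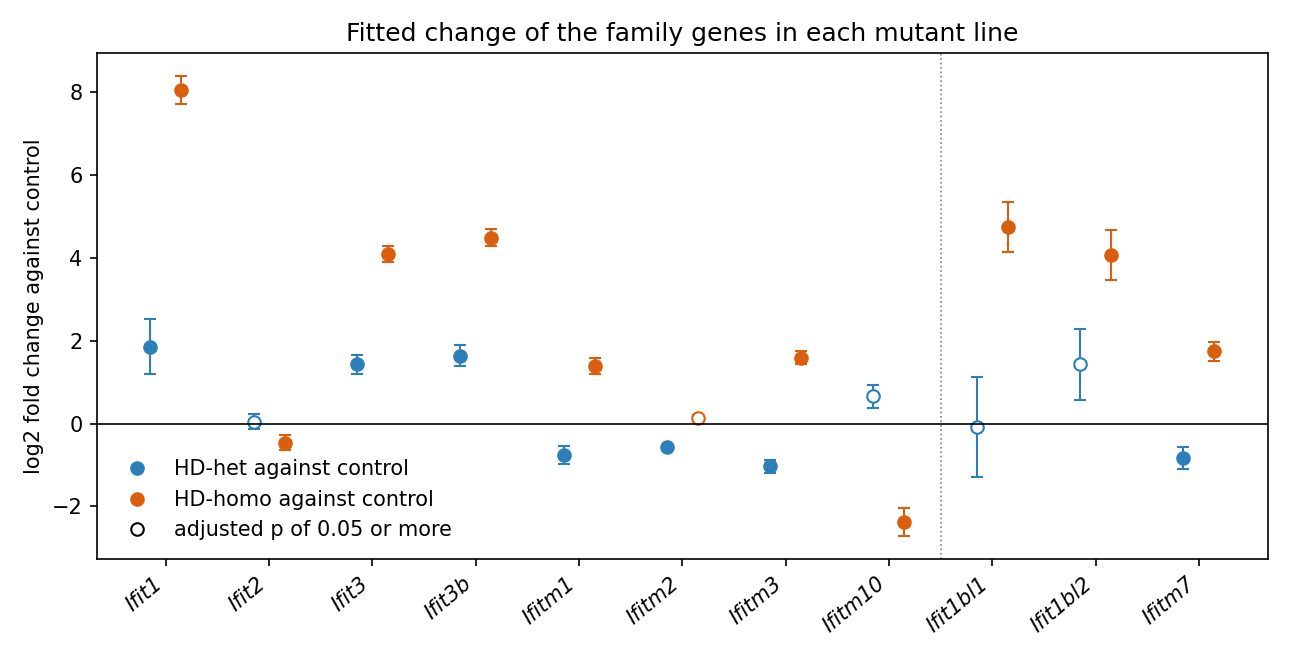
Fitted log2 fold change against control, with its SE, of the 8 members and 3 further tested family genes (right of the dotted line) in HD-het and HD-homo cells, open where the adjusted p was 0.05 or more. Ifit1 is highest at 8.05 in HD-homo cells, Ifitm1, Ifitm3 and Ifitm7 lie above 0 in HD-homo and below 0 in HD-het cells, and Ifitm10 is lowest at −2.37. Ifit1, Ifit1bl1 and Ifit1bl2 passed the filter only through HD-homo libraries, so whether their marks are open carries little weight.

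The balance of Ifitm3 and Ifitm2 within a library turned between the lines. There were 0.669, 0.662 and 0.695 Ifitm3 counts per Ifitm2 count in control libraries, 0.485, 0.527 and 0.476 in HD-het libraries and 1.80, 1.46 and 2.30 in HD-homo libraries. Ifitm2 had more counts than Ifitm3 in all 6 control and HD-het libraries and fewer in all HD-homo libraries. Of the stretches of 50 bases in Ifitm3 transcripts, 5.09% match Ifitm2, 8.11% match Ifitm1 and 6.36% match Ifitm7 with up to 2 mismatches, so reads from these genes can be confused only over a small part of their length. Summed to 1 gene, Ifitm2 and Ifitm3 differed from control by a log2 of 0.90 in HD-homo and −0.74 in HD-het cells.

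Of the other IFITM genes, Ifitm7 on chromosome 16 was the only one with enough counts to be tested. It stood at 1.52, 1.46 and 1.39 CPM in control, 0.761, 0.823 and 0.869 CPM in HD-het and 4.60, 3.50 and 6.65 CPM in HD-homo cells. Its order of lines was that of Ifitm3, with no overlap (log2 fold changes 1.75 and −0.83, adjusted p = 5.0e-05 and 0.0179, the latter 0.0567 without HD-het replicate 1). Ifitm5, a gene of bone-forming cells, had 1 to 7 counts in a library, and Ifitm6 had at most 1.

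Ifitm1, Ifitm2, Ifitm3, Ifitm5 and Ifitm6 lie within 69.0 kb of chromosome 7, and Ifitm10 lies apart on the same chromosome. The start windows of Ifitm3 and Ifitm2 hold GAAANNGAAA on the strand of the gene, those of Ifitm1 and Ifitm10 do not, and the stretches around it are shown because these neighbours with the core differed in HD-homo cells. They are chr7:141010695-141010772 and chr7:140955968-140956037, on the minus strand, with the core in capitals.
Ifitm3: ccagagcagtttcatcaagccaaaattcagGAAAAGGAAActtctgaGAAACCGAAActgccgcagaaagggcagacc
Ifitm2: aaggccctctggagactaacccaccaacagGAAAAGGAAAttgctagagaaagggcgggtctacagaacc

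Ifitm3 holds the core at 2 places, 2 and 19 bases after the start, and Ifitm2 at 1 place, 46 bases before it. Of the 8 members, 5 hold the core, and of 29 matched genes among 40 other interferon-stimulated genes, 13 do (44.8%). Of all 27025 genes with windows, 3.99% hold it. A match describes the letters of a window and shows no binding, and Ifitm1 changed with Ifitm3 without holding the core in its window.

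Beyond the end of the IFITM cluster, Gm17387, the nearest gene, has no row in the count table, and the next, B4galnt4 and Pkp3, shared the order of lines seen for Ifitm3. B4galnt4, a glycosyltransferase gene, stood at 7.56, 6.90 and 6.49 CPM in control, 2.48, 2.68 and 2.31 CPM in HD-het and 15.6, 13.7 and 12.8 CPM in HD-homo cells. Pkp3, a gene of cell junctions, had log2 fold changes of −2.45 in HD-het and 1.70 in HD-homo cells. The lines did not overlap for either. On the other side, Pgghg had log2 fold changes of 0.83 in HD-het and 0.20 in HD-homo cells (adjusted p = 1.7e-05 and 0.0987), and Nlrp6 and Cox8b had at most 1 count in a library. Beside Ifitm10, Ctsd, which encodes a lysosomal protease, stood at 255, 247 and 259 CPM in control, 567.5, 519.7 and 545.9 CPM in HD-het and 184, 211 and 208 CPM in HD-homo cells, which is the order of lines of Ifitm10. Syt8 had log2 fold changes of 0.96 in HD-het and 0.64 in HD-homo cells (adjusted p = 0.0149, 0.0581 without control replicate 3, and 0.0968), Tnni2 had at most 7 counts in a library, and Krtap5-4, Krtap5-1 and Gm4559 were at 0.

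Levels of different genes were compared as CPM per kb of the longest coding transcript. In control cells Ifitm2 was highest at 107 ± 3.71, then Ifitm3 at 69.8 ± 4.03, Ifit2 at 7.43 ± 0.182, Ifitm1 at 2.78 ± 0.168, Ifitm10 at 1.93 ± 0.167, Ifit3 at 0.168 ± 0.0405, Ifit3b at 0.105 ± 0.0179 and Ifit1 at 0.0268 ± 0.0242 CPM per kb (SD, n = 3). No 2 neighbours in that order overlapped. In HD-homo cells Ifitm3 was highest at 210.0 ± 55.9 and Ifitm2 next at 117 ± 5.92 CPM per kb, without overlap. Ifit1 at 7.66 ± 1.51, Ifitm1 at 7.32 ± 1.90 and Ifit2 at 5.36 ± 1.89 CPM per kb followed and overlapped. Ifit3 at 2.91 ± 0.247, Ifit3b at 2.40 ± 0.159 and Ifitm10 at 0.379 ± 0.277 CPM per kb came last, and none of these 3 overlapped. HD-het cells kept the 3 highest genes of control cells, Ifitm2 at 71.7 ± 6.21, Ifitm3 at 34.2 ± 1.73 and Ifit2 at 7.68 ± 0.568 CPM per kb, and Ifit1 was the lowest of the 8 at 0.104 ± 0.0370 CPM per kb.

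Upstream of the families, no interferon transcript was detected at levels that could be tested. Of 10 ligand genes, Ifna1, Ifna2, Ifna4, Ifna5, Ifnb1, Ifng, Ifnl2 and Ifnl3 were at 0 in all 9 libraries, and Ifne and Ifnk had at most 2 counts in a library. A count of 0 allows up to 3 counts, which is 0.0710 to 0.101 CPM here.

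Of 9 tested receptors and kinases that carry the signal, 4 rose and 1 fell in the HD-homo line, about the share called among all tested genes (58.6%), with a median log2 fold change of 0.28 beside 0.0077 over all tested genes. Ifngr2 stood at 31.9, 31.5 and 31.0 CPM in control and at 71.2, 65.7 and 56.9 CPM in HD-homo cells (log2 fold change 1.04, adjusted p = 1.5e-06), and Jak1, Ifnar2 and Tyk2 had log2 fold changes of 0.47, 0.45 and 0.28, the last with an adjusted p of 0.0310 that reached 0.0982 without HD-homo replicate 2. Ifngr1 was lower (log2 fold change −0.41, adjusted p = 3.1e-04). Ifnar1, Jak2, Il10rb and Ifnlr1 did not pass in that comparison. In the HD-het line 4 rose and 2 fell, again about the share of all tested genes (65.1%), and Ifnlr1, a chain of the lambda interferon receptor, had 1 count in each HD-het library against 23, 26 and 34 in control libraries (log2 fold change −4.72, adjusted p = 8.6e-06).

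Irf9, which gives the interferon-activated complex its contact with response elements, stood at 5.94, 5.77 and 4.43 CPM in control, 9.90, 9.82 and 8.71 CPM in HD-het and 25.8, 20.3 and 33.2 CPM in HD-homo cells. Irf7, which amplifies interferon production, stood at 0.187, 0.0297 and 0.101, at 0.987, 1.22 and 0.779, and at 13.6, 7.67 and 18.2 CPM. For both genes the lines stood in the order control, HD-het, HD-homo without overlap, as for Ifit1, Ifit3 and Ifit3b. Stat2 and Irf5 had log2 fold changes of 1.79 and 3.04 in HD-homo cells and of 0.29 and 0.70 in HD-het cells, where the Stat2 value had an adjusted p of 0.0164 that reached 0.0686 without HD-het replicate 2. Irf7 had log2 fold changes of 6.92 and 3.20, which became 7.61 and 3.90 without control replicate 1. Irf1 had its mean lowest in HD-het and highest in HD-homo cells, as Ifitm3 did, but its HD-homo and control libraries overlapped, with log2 fold changes of 0.43 in HD-homo (adjusted p = 0.0142, 0.0606 without control replicate 1) and −0.80 in HD-het cells (adjusted p = 3.2e-04). Irf3 was lower in HD-homo cells (log2 fold change −0.44, adjusted p = 5.4e-04) and higher in HD-het cells (log2 fold change 0.23, adjusted p = 0.0217, called in 7 of 9 fits with a library left out and reaching 0.109 without control replicate 2), Irf2 had a log2 fold change of 0.02 (adjusted p = 0.804) and Irf8 had too few counts to be tested.

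Of 6 genes that restrain the pathway, 4 were higher and 1 lower in HD-homo cells and none was higher and 3 were lower in HD-het cells, where 58.6% and 65.1% of all tested genes were called. One of the 4, Usp18, which removes Isg15 from proteins and blocks the receptor, had 1, 4 and 0 counts in control, 7, 7 and 4 in HD-het and 309, 275 and 808 in HD-homo libraries. It passed the filter only through those HD-homo libraries, so its call carries little weight and its p is not given. Against control, its fitted log2 difference in the HD-homo line was 7.89, or 7.15 without HD-homo replicate 3 and 9.39 without control replicate 2. Ptpn6, Ptpn2 and Pias1 followed at 0.94, 0.33 and 0.31, Socs3 was lower (log2 fold change −0.51, adjusted p = 1.9e-04), and Socs1 was lower in HD-het cells (log2 fold change −1.25, adjusted p = 1.7e-05) and at 0.19 in HD-homo cells (adjusted p = 0.255).

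Of 40 other interferon-stimulated genes, 37 were tested, and relative to control 35 of them rose and none fell in the HD-homo line, by the same edgeR test, where 29.6% of all tested genes rose and 28.9% fell. Many of them, such as Oasl1, Oas1a, Mx2 and Cmpk2, had few counts outside HD-homo cells and passed the filter only through those libraries, so the counts and medians over all 37 are partly set by the filter and their distance from the shares of all tested genes is not read as a result. Of the 17 with at least 10 counts in every library, 15 rose and none fell in HD-homo cells, 8 rose and 2 fell in HD-het cells, and 14 were higher and 1 lower in HD-homo against HD-het cells. These counts come from the fit with that filter, over 11739 genes. The share of all genes called in that fit is not given here, so the counts are not read as a result. Over all 37, the median log2 fold change was 3.86 beside 0.0077 over all tested genes, and the same with genes at 0 in 1 line set to their bound. In the HD-het line 14 rose, 3 fell and 20 were not called, where 33.8% of all tested genes rose and 31.4% fell, with a median of 0.86 (0.83 with bounds) beside 0.025. HD-homo cells exceeded HD-het cells for 34 of the 37 with 1 lower, where 36.0% of all tested genes were higher and 35.6% lower, at a median of 2.47 beside 0.0017. Leaving out 1 library at a time gave 35 to 38 higher in HD-homo and 14 to 16 in HD-het cells against control, among those tested in each fit. By the fit, the 3 largest increases in HD-homo cells were those of Oasl1, Trim30a and Oas1a, though the first 2 were at 0 in all control libraries, so only lower bounds can be given for them and their rank is not firm. Oasl1, an oligoadenylate synthetase relative, had 0 counts in all control and HD-het libraries and 229, 384 and 243 in HD-homo libraries, at least 82.3-fold higher than the floor of 3 counts per library. Oas1a, which makes the activator of RNase L, had 0, 2 and 1 counts in control, 0, 1 and 1 in HD-het and 228, 283 and 667 in HD-homo libraries, with a log2 fold change of 8.31 against control that became 7.60 without HD-homo replicate 3 and 9.13 without control replicate 2. Trim30a had 13, 26 and 303 counts in HD-homo libraries and at most 1 elsewhere, at least 35.4-fold above the floor, a bound that rests mostly on HD-homo replicate 3. Its fitted log2 value, 9.81 (SE 2.52), has no measured denominator and became 7.14 without that library. HD-homo replicate 3 was also the highest library for Ifitm1, Ifitm3 and Ifitm10 within that line, but not for the 3 IFIT genes apart from Ifit1, and HD-homo replicate 2 was the highest for Ifit2.

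**Figure D5:**
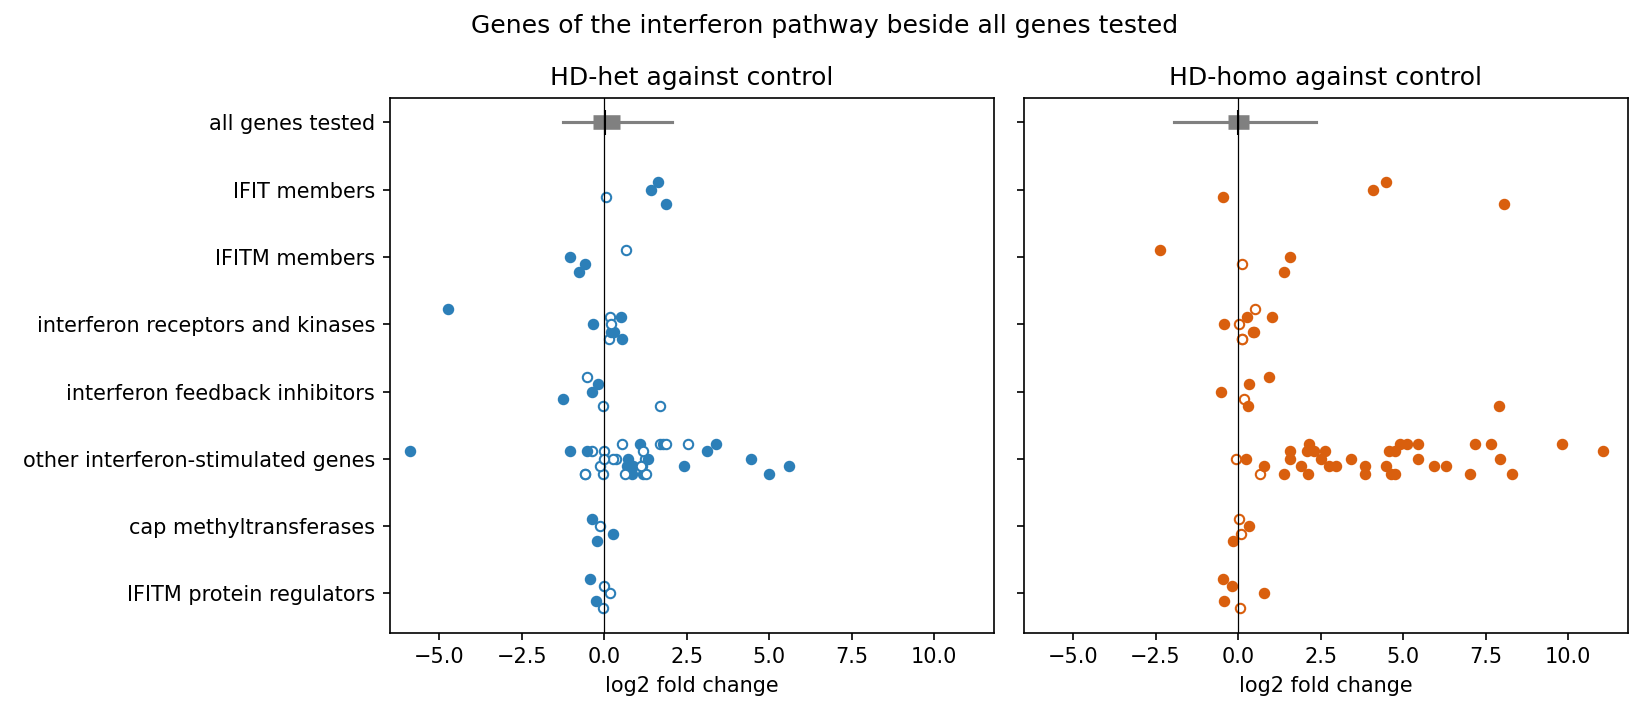
Fitted log2 fold change against control of each tested gene of the families and of 5 lists of related genes (circles, open where the adjusted p was 0.05 or more) beside all 13508 tested genes (grey, line from the 5th to the 95th percentile, box from the 25th to the 75th, tick at the median), for HD-het (left) and HD-homo cells (right). The other interferon-stimulated genes lie mostly to the right, with medians of 0.86 and 3.86, Oasl1 and Trim30a, at 0 in control libraries, are drawn at fitted values, and Ifit2 is the IFIT member near 0. Whether a circle is open carries little weight for genes that passed the filter only through HD-homo libraries.

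Of the enzymes that write the cap marks read by IFIT proteins, 4 were tested. Cmtr1, a ribose methyltransferase that is itself interferon-inducible, had a log2 difference of 0.33 in HD-homo cells (adjusted p = 0.0151, 0.0563 without HD-homo replicate 3), and Rnmt, the guanine methyltransferase, at −0.16 (adjusted p = 0.0423, 0.168 without control replicate 2). Ramac, the activator of Rnmt, and Cmtr2 were at 0.10 and 0.04 (adjusted p = 0.165 and 0.737). In HD-het cells Cmtr2 was at −0.39, Rnmt at −0.23 and Ramac at 0.26 (adjusted p = 0.0051, 0.00526 and 0.00299), and Cmtr1 was at −0.14 (adjusted p = 0.234). Of 5 genes whose products act on or with IFITM proteins, Zdhhc20, a palmitoyltransferase, stood at 98.0, 104 and 87.8 CPM in control and 153, 177 and 172 CPM in HD-homo cells (log2 fold change 0.79, adjusted p = 2.2e-05). Setd7, a methyltransferase, and Vapa, a membrane-trafficking protein, were lower at −0.45 and −0.42 (adjusted p = 2.3e-04 and 1.7e-04). Nedd4, a ubiquitin ligase, was at −0.17 (adjusted p = 0.0453, 0.153 without HD-homo replicate 1), and Zmpste24 was at 0.06 (adjusted p = 0.444). In HD-het cells Setd7 and Vapa were lower at −0.42 and −0.26 (adjusted p = 3.2e-04 and 0.00417), and the other 3 were not called. With a replicate block, 1 of the 5 genes was called higher in HD-het than in control cells. In that comparison this fit called 9160 of 13508 tested genes in either direction, so the count is not read as a result.

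The 3 genes outside the families whose profile over the 9 libraries was closest were named for each member. Closeness was the root mean square difference of mean-centred log2 CPM, and 13497 tested genes were compared. For Ifit1 these were Capn6, Hic1 and Cyp1b1, at 0.471, 0.532 and 0.589. For Ifit3 they were Col6a1, Neurl1a and B3gnt9 (0.158 to 0.254), and for Ifit3b Arhgdib, Col6a1 and Neurl1a (0.179 to 0.251). Col6a1, a collagen gene, had means of 116 CPM in control, 260.1 CPM in HD-het and 1614 CPM in HD-homo cells, the same order as Ifit3. For Ifit2 they were Kyat3, 2700049A03Rik and Aph1c (0.121 to 0.132), each with 1 HD-homo library, replicate 2, above the other 2. For Ifitm3 they were Rnf213, an interferon-inducible gene, then Nqo1 and S100a1 (0.144 to 0.201), for Ifitm1 Abcb1a, Nid1 and Nqo1 (0.118 to 0.177), for Ifitm2 Rpl29, Eif1ad and Cactin (0.0354 to 0.0409) and for Ifitm10 Lmcd1, Unc5b and Six3 (up to 0.278). Rnf213 had means of 61.5 CPM in control, 30.9 CPM in HD-het and 215 CPM in HD-homo cells. The median distance of all tested genes was 3.25 for Ifit1, 1.12 for Ifitm3 and 0.441 for Ifitm2, so small distances are commoner for genes that vary little.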

How the data were processed

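The deposited table holds whole-number poly(A) RNA-seq counts per gene symbol for 9 libraries. They were made by the authors before deposition and were used here as raw counts. The submitters' processing notes name cutadapt, Bowtie 1.1.2, RSEM 1.3.0 and DESeq2. Whether the whole numbers are rounded RSEM estimates, and how reads that match several genes were divided, is not given in the sources used here. Of the 36410 genes listed, all were kept as listed.

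The analysis used edgeR 4.0.16 under R 4.3.3. The filterByExpr defaults (minimum count 10) left 13508 genes, libraries were scaled by TMM, and the 9 libraries entered 1 quasi-likelihood fit that has a mean for each line. The 3 pairs of lines were compared by the quasi-likelihood F test of edgeR, and p-values were adjusted by Benjamini-Hochberg over all tested genes in each comparison, with a threshold of 0.05. With 3 libraries against 3, an exact permutation test could give no p under 0.1. Fold changes are ratios of mean CPM, given as lower bounds against a floor of 3 counts where all libraries of a line were at 0. Intervals and floors cover counting error only. The scripts were tested on simulated data.

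The members and lists were chosen with earlier results of these data known. Genes named are the members, their relatives, the 3 nearest protein-coding genes on each side of each cluster, the 3 closest profiles of each member and every gene of the discussed lists of 10 or fewer. Of the longer list of other interferon-stimulated genes, the 3 largest increases in HD-homo against control cells are named, where none was called lower. The largest changes of that list in HD-het cells are not named by rule. One gene of the list of transcription factors is not reported here, and counts over that list are left out. Markers outside that rule were chosen after their values were seen. Alternatives were DESeq2 1.42.0 (Wald test, and its size factors within edgeR), library totals only, no filter, a stricter filter, only the 2 lines compared, a replicate block, a prior count of 2, stricter thresholds, summed counts of related genes, and each library left out in turn. Positions come from GENCODE on GRCm38 and start windows from RefSeq on GRCm38.p6, read with Python 3.11.15.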

Additional observations from a re-analysis of the deposited data

Results flagged for a closer look

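Each of the 8 members was flagged because its difference from control was not the same in the mutant lines, as tested by the contrast of HD-homo against HD-het cells (edgeR quasi-likelihood test, Benjamini-Hochberg adjusted). The HD-homo effect minus the HD-het effect on the log2 scale was 6.19 for Ifit1, 2.667 for Ifit3, 2.856 for Ifit3b, 2.15 for Ifitm1, 0.7022 for Ifitm2 and 2.616 for Ifitm3. It was −0.5115 for Ifit2 and −3.03 for Ifitm10. Since 71.6% of all tested genes were called in that contrast, a flag of this kind is common in these data. The flag of Ifit1, which passed the filter only through its HD-homo libraries, carries little weight.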

How the results depend on the processing

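Of 24 log2 fold changes (8 members in 3 comparisons), 19 kept their direction and their side of the threshold under each alternative that gave a value for them (15 to 18 per result) and 5 did not: Ifit2 in all 3 comparisons, and Ifit1 and Ifitm10 in HD-het against control cells. With at least 10 counts in every library, only 5 members could be tested, and 3, 3 and 5 were called in HD-homo against control, HD-het against control and HD-homo against HD-het. The shares of all genes called under that filter are not given here, so these counts are not read as a result about the members. Ifit1, Ifit3 and Ifit3b did not pass that filter, and Ifit2 did but was no longer called in HD-homo against control cells (−0.46, adjusted p = 0.0542), for which the cause was not tested. The stricter thresholds were applied to the counts of all genes only, and a log2 fold change of at least 1 as a further condition left 2574, 2490 and 3285 genes in these comparisons.

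The mean log2 ratio of Ifit2 to Ifit3 became 5.83 in control, 4.33 in HD-het and 0.996 in HD-homo cells with Ifit3 and Ifit3b summed, as the sum is larger by construction. With 1 library left out, the log2 ratio of summed Ifit2 to Ifit1 counts in HD-homo cells ran from −0.24 to 0.233, and the log2 fold change of Ifit2 in HD-het against control cells from −0.001028 to 0.1037. The cause of these changes of sign was not tested, and both values lie near 0.

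The replicate numbers do not pair the libraries by the labels. Deviations of same-numbered libraries correlated at r = 0.0332, 0.0219 and 0.00893 between HD-homo and control, 0.0488, 0.145 and 0.133 between HD-het and control, and −0.00532, 0.133 and 0.115 between HD-homo and HD-het, so not every pair exceeded 0.1. The best match was the library of the same number for 6, 6 and 4 of 6 libraries, a hint from the data and not from the design. With a replicate block 8372, 9160 and 9938 genes were called in place of 7910, 8797 and 9666, and 7, 6 and 8 members as in the main fit.

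The 3 control libraries hold 7 Ifit1 counts in total, which limits the precision of its fold change, and leaving out a library moved it between 7.53 and 8.64 on the log2 scale.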

Other observations

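Ifitm3 and Ifitm7, on different chromosomes, kept a nearly constant ratio, with 31.0, 30.6 and 36.1 Ifitm3 counts per Ifitm7 count in control, 29.1, 27.9 and 28.2 in HD-het and 27.2 to 30.7 in HD-homo libraries. Their transcripts share 6.36% of the 50-base stretches of Ifitm3 with up to 2 mismatches. Trim25, chosen after its values were seen, had 178, 179 and 159 counts in control, 1, 5 and 3 in HD-het and 1175, 1320 and 1129 in HD-homo libraries.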
